A study of Mus musculus with 3 samples.

Results

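Paneth cells of the mouse intestine were taken from single-cell RNA sequencing (scRNA-seq) of sorted intestinal epithelium as the 88 of 5594 kept cells (1.57%) in which 9 granule genes together made up at least 10% of the unique molecular identifiers (UMIs, the tags that count captured transcripts). The 9 genes were Lyz1, Mptx2, Defa17, Defa21, Defa24, Defa29, Defa30, Gm14851 and AY761184. The cells were therefore chosen by the measured level of these genes, which are given below as a description, without a test. Barcodes with fewer than 1000 genes or more than 15% mitochondrial UMIs had been set aside, so that Arid3a cKO 1 kept 2134 of its 6845 barcodes, Arid3a cKO 2 kept 1550 of 6893 and WT kept 1910 of 11816.

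The study asked what the loss of the transcription factor Arid3a does to the intestinal epithelium. The Arid3a cKO mice carried VillinCreERT2, a Cre recombinase that tamoxifen switches on and that the Villin promoter drives in the whole intestinal epithelium, and Arid3a fl/fl, the floxed alleles it removes. The WT mice carried VillinCreERT2 without the floxed alleles and received tamoxifen too, so recombinase and drug were common to all 3 libraries. Tamoxifen was given at an age of 8 to 10 weeks and tissue was taken 1 month after its first dose, and dissociated crypts were sorted as DAPI-negative, Epcam-positive, CD45-negative and CD31-negative cells for 10x Genomics 3′ libraries. The series record gives 2 biological replicates for each condition, and 1 WT library is analysed here. With 1 WT library there was no test between genotypes and no p-value is given, and the intervals given are exact 95% intervals that cover counting error only.

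Paneth cells sit at the base of the small intestinal crypt between the Lgr5+ stem cells and release granules loaded with antimicrobial peptides into the crypt lumen. Their alpha-defensins are made as inactive precursors that the metalloprotease Mmp7 cleaves in the mouse, and lysozyme, secretory phospholipase and angiogenin-family ribonucleases share the granule. They also supply Wnt, Notch and EGF-family ligands to the neighbouring stem cells, and their fate is set in the secretory lineage by Atoh1 and by Wnt-dependent factors such as Sox9.

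Of the 9 genes, 7 are alpha-defensins that lie within 710 kb of chromosome 8 (21025545 to 21735471, GRCm38, GENCODE M21), all annotated as protein coding. Lyz1, the Paneth cell lysozyme, lies on chromosome 10 (117287797 to 117292868, minus strand), and Mptx2, a pentraxin, on chromosome 1 (173274382 to 173277777, minus strand). The defensin copies share sequence to differing degrees. Of all 50-base words in the Defa17 transcripts, 92.0% also occur in another gene of the family, against 72.9% for Defa21, 55.6% for Gm14851, 52.4% for Defa30, 43.4% for Defa29, 33.5% for AY761184 and 28.1% for Defa24. How reads that fit several copies were shared out is not given in the sources used here, so the level of any 1 defensin is uncertain, whereas Lyz1 and Mptx2 share no such word with the family.

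The 250 bases before the start of 3 of the rule's defensins are shown, the 3 for which RefSeq held an upstream window. Capitals mark ATCAAAG, the motif of the Wnt-responsive TCF/LEF factors, and TATAAA, the TATA box. The sequences are from RefSeq on GRCm38.p6 and are written 5′ to 3′ on the gene's strand. They lie at chr8:21025295-21025544 (plus strand) for Defa21, chr8:21134400-21134649 (plus strand) for Defa30 and chr8:21096051-21096300 (minus strand) for Gm14851, which RefSeq names Defa38.
Defa21: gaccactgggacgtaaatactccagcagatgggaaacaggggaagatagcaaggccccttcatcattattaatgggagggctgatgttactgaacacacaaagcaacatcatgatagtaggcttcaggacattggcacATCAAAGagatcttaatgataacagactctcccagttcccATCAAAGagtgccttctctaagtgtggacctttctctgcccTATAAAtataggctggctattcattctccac
Defa30: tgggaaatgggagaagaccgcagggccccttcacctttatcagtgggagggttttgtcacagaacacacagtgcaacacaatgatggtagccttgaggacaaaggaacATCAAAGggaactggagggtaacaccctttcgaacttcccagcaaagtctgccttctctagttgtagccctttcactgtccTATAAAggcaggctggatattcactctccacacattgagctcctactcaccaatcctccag
Gm14851: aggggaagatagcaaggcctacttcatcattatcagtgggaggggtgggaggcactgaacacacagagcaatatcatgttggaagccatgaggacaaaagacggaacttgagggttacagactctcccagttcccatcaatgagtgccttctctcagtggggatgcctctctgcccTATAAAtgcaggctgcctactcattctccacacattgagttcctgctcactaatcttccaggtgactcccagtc
ATCAAAG began 112 and 72 bases before the Defa21 start and 142 bases before the Defa30 start, and was not in the Gm14851 window. TATAAA began 31, 61 and 74 bases before the start of Defa21, Defa30 and Gm14851. RefSeq held an upstream window for 16 of 45 alpha-defensin symbols, annotated pseudogenes being among the 45. Of the 16 windows, 13 (81.2%) held ATCAAAG and 14 (87.5%) TATAAA, all on the gene's strand. Searched on both strands (as CTTTGAT and TTTATA on the other), the motifs were in 3.21% and 12.4% of 32851 windows of 250 bases before RefSeq genes. The defensin windows are copies within 1 family and not separate cases. In Defa21, Defa22, Defa2 and Defa20 alike, ATCAAAG began at 112 and 72 bases and TATAAA at 31. Such a match is a description of letters and not a binding site.

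The WT library held cells that were nearly the same. Among its Paneth cells, 5 barcodes in 2 sets, of 3 and 2 cells, differed by a chi-square of at most 3.19 per gene, where the next pair of WT cells stood at 6.07 and the median pair at 64.7. The set of 3 had 67040 to 68095 UMIs, 11.7 to 18.2% of them on the 9 genes, and 10.2 to 14.1% mitochondrial UMIs. The Paneth share, the granule share and the main counts of called genes are given below with and without the 3 surplus barcodes. Other values of all WT Paneth cells include them. The libraries shared 11 to 18 barcodes in pairs, none of them a Paneth cell. Scrublet marked 38, 34 and 46 of the kept cells of Arid3a cKO 1, Arid3a cKO 2 and WT as doublets, of which 1 (WT) was a Paneth cell, and doublets were kept.

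Paneth cells made up 1.69% of the cells of Arid3a cKO 1 (36 of 2134, interval 1.18 to 2.33), 1.29% of Arid3a cKO 2 (20 of 1550, 0.790 to 1.99) and 1.68% of WT (32 of 1910, 1.15 to 2.36). The WT share lay between those of both cKO libraries and all 3 intervals overlapped. The mean of the cKO shares minus the WT share was -0.187 percentage points. With 1 barcode of each near-identical set the WT share was 1.52% and the difference -0.03 points. Fewer Paneth cells and fewer that survived dissociation, the sort and the 1000-gene limit cannot be told apart. A further 14, 14 and 31 barcodes held the 9 genes at 10% or more but were not kept, with a median of 234.5, 260.5 and 239 genes.

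Within the Paneth cells, a cell gave 13.1 to 86.7% of its UMIs to the 9 genes in Arid3a cKO 1 (median 64.9%), against 15.4 to 85.8% in Arid3a cKO 2 (median 82.1%), while WT ran from 11.7 to 87.8% (median 72.3%). Just outside the limit, the highest other kept cell stood at 8.91%, 8.64% and 7.73%, and only 2, 3 and 4 other cells lay between 5 and 10%. The median of the other cells was 0.0314%, 0.0231% and 0.0326%, so the limit fell in a nearly empty range. As a description only, since the 9-gene share is what chose the cells, its Spearman rho within Paneth cells was 0.88, 0.71 and 0.91 with the CPM (a gene's UMIs per 1000000 summed UMIs outside the granule genes) of Itln1, a lectin outside the rule, over the 36, 20 and 32 cells. By share, 12 Paneth cells lay under 30% (3, 3 and 6), 31 between 30 and 70% (17, 4 and 10) and 45 at 70% or more (16, 13 and 16).

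**Figure D1:**
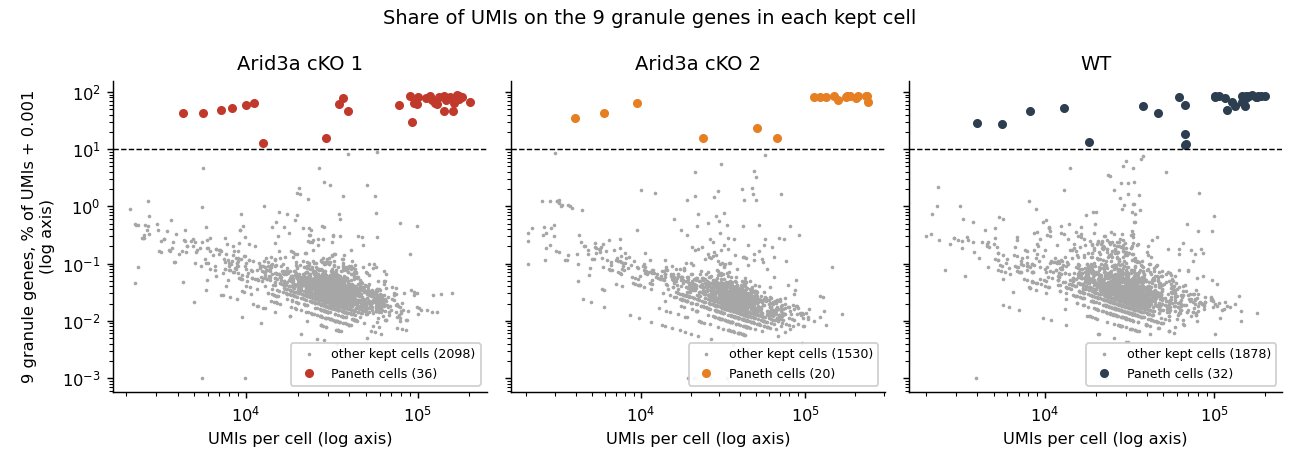
Share of UMIs on the 9 granule genes (vertical log axis, percent plus 0.001) against UMIs per cell (horizontal log axis) for every kept cell of the 3 libraries, coloured points being the Paneth cells and the dashed line the 10% limit. The 36, 20 and 32 Paneth cells stand above a sparse gap, and most lie to the right of the grey cloud of other cells.

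Paneth cells carried far more UMIs than other cells, and nearly all the surplus was granule RNA. The median Paneth cell held 114386 UMIs (Arid3a cKO 1), 153943 (Arid3a cKO 2) and 117357 (WT), against 31254.5, 35647 and 29735.5 in the other kept cells. In 25, 14 and 24 of the Paneth cells the total was above the 95th percentile of the other cells. Without the 9 genes and 38 further alpha-defensin symbols the order turned, with 21910, 23537.5 and 20930.5 UMIs in the median Paneth cell against 31244.5, 35638 and 29708.5. Although they were 1.57% of the cells, Paneth cells gave 5.13%, 4.62% and 5.45% of all kept UMIs.

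Fewer genes were seen in them, with a median of 3776.5, 3975.5 and 3899 genes against 4910, 5060 and 4798. Thinned to 10000 UMIs a cell, which left out 4, 3 and 3 Paneth cells and 133, 108 and 118 others, the medians were 1119.5, 638 and 873 genes against 2841, 2812 and 2842. When granule RNA was set aside before thinning, which left out 7, 3 and 5 Paneth cells, they were 2571, 2448 and 2783 against 2845, 2818 and 2841.5, so most of the gap closed once granule RNA was set aside. Mitochondrial genes took a median of 0.631%, 0.176% and 0.983% of all UMIs in Paneth cells and 4.68%, 4.11% and 5.54% in others. Granule RNA is part of these totals. On summed UMIs outside the granule genes, mt-Cytb was at 8197, 5631 and 17268 CPM in Paneth cells against 12526, 13039 and 13437 in others. For mt-Rnr2 the values were 7310, 4068 and 16915 CPM against 14559, 10875 and 17018. Both WT Paneth values include the near-identical barcodes, some of which had 10.2 to 14.1% mitochondrial UMIs.

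The 9 genes summed to 70.6% (Arid3a cKO 1), 77.7% (Arid3a cKO 2) and 72.7% (WT) of all Paneth UMIs, again with WT between both cKO libraries. The mean of the cKO values minus WT was 1.41 percentage points, and turned to -2.16 among the cells at 70% or more and to -1.16 with 1 barcode of each near-identical set, both chosen after the data were seen. In the other kept cells the 9 genes were 0.0637%, 0.0646% and 0.0857% of UMIs. Whether these UMIs were free RNA in the droplets or expression was not tested. Of the granule RNA in the other kept cells Defa24 was 57.1, 53.2 and 52.2%, against 48.2, 46.1 and 43.3% in Paneth cells. Defa30 was 14.8, 14.4 and 18.6% of it, against 18.3, 19.2 and 23.1% in Paneth cells. Lyz1 was 8.82, 11.7 and 7.54% of it, against 7.18, 7.83 and 5.15%.

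Alpha-defensins made up 67.3%, 73.9% and 71.2% of all Paneth UMIs. A 3′ UMI counts 1 transcript whatever its length, so shares of genes can be set side by side, but the order among defensins is only as counted, since copies share sequence. As counted, Defa24 was at 35.3% for Arid3a cKO 1, 37.1% for Arid3a cKO 2 and 32.7% for WT. Defa30 was at 13.4%, 15.5% and 17.5%, with WT above both cKO libraries. AY761184, another alpha-defensin, stood at 6.30%, 7.002% and 6.53%.

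Lyz1, which cleaves bacterial peptidoglycan, took 5.26%, 6.30% and 3.89% of Paneth UMIs, with WT below both cKO libraries. Defa17, Defa29 and Gm14851 each took 2.89 to 4.13%. The 2 lowest of the 9 were Mptx2, at 0.592%, 0.270% and 0.569%, and Defa21, at 0.292%, 0.190% and 0.454%. Of 38 alpha-defensin symbols outside the rule, 21 had a UMI in every library, 14 had none in any, and Gm7861 was the highest at 1.09%, 1.34% and 1.18%. Most of the 14 were Defa-ps symbols, which are annotated as pseudogenes. The others were Gm15056 and Defa2 and Defa33, of whose 50-base words 100% also occur in other copies.

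The mixture differed from cell to cell. As a share of a cell's granule RNA, Defa24 ran from 36.8 to 96.1% (median 45.9%), Defa17 from 2.11 to 22.0%, Defa30 from 0 to 33.4%, Lyz1 from 0 to 21.6% and Defa21 from 0 to 5.44%. Where Defa24 took more, Defa30 took less, with a Spearman rho of -0.56, -0.85 and -0.79 over the 31, 17 and 31 cells of Arid3a cKO 1, Arid3a cKO 2 and WT, counting cells with Defa30 at 1% or more. Defa29 and Gm14851 went together, with a rho of 0.78, 0.68 and 0.48 in the same cells, as did Defa21 and Defa22, with 0.61, 0.35 and 0.71. These are shares of 1 total in each cell, and both pairs share sequence, and how much of each relation comes from that was not tested.

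A group of 9 Paneth cells had almost no Defa30. Of these, 5 were from Arid3a cKO 1, 3 from Arid3a cKO 2 and 1 from WT, with Defa30 at 0.274% of granule RNA or less, where the next cell stood at 8.25%. Defa21 was at 0 in all 9, Gm14851 reached 0.00943% and Defa29 0.270%. Defa24 (median 74.2% of granule RNA against 45.6% in the other 79 cells) and Defa17 (14.2% against 4.55%) filled the place. The 9 genes were only 15.7% of UMIs in the median cell of this group and 77.5% in the others, and 6 of the 9 cells lay under 30%, the other 3 between 30 and 70%.

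The same 9 cells held more RNA of Fcgbp and Tff3, markers of goblet cells, which are mucus-secreting relatives of Paneth cells. They also held more Spink4 and Klk1, which are not markers of goblet cells alone. Values of Muc2, Clca1 and Zg16, the other goblet markers listed, are not given for this group. Fcgbp and Tff3 therefore do not stand for the goblet list as a whole. In CPM, the median of Fcgbp, a mucus-layer protein, was 4692 in the 9 cells against 64.2 in the other Paneth cells. Tff3, the goblet trefoil peptide, was 24273 against 4657, Spink4, a secreted protease inhibitor of goblet and Paneth cells, 102401 against 32195, and Klk1, a kallikrein protease, 1501 against 80.0. Genes of the mature granule cell went the other way, with Itln1, a lectin that binds microbial sugars, at 13291 against 125867 and Pnliprp2, a lipase, at 25.9 against 3461. The group was defined from these data, and whether it is a state of the cell, a mixture of cells in 1 droplet or free RNA was not tested.

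**Figure D2:**
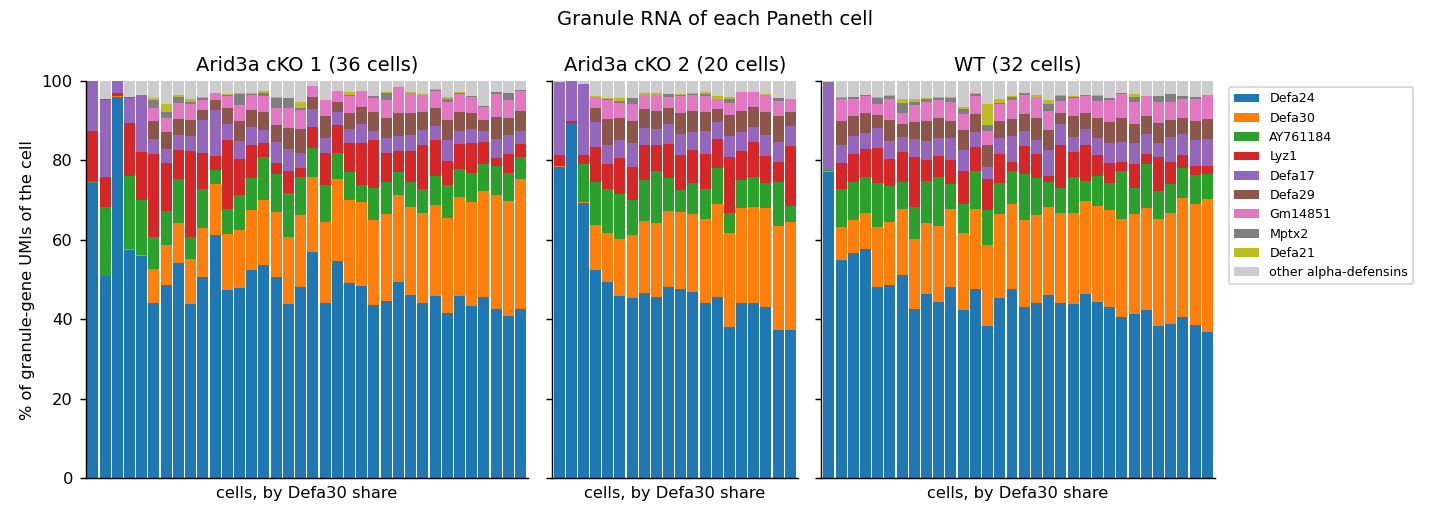
Each bar is 1 Paneth cell and its colours the share of granule-gene UMIs (percent, axis from 0 to 100) taken by each of the 9 genes and by the other alpha-defensins, with cells ordered by Defa30 within each library. The leftmost 5, 3 and 1 bars lack the orange Defa30 block and carry more Defa24 and Defa17.

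Markers of other cell types were looked for in the Paneth cells. Tuft markers (Dclk1, Trpm5, Avil, Rgs13 and Sh2d6) and intraepithelial lymphocyte markers (6 genes, among them Ptprc, Cd3e and Gzma) were at 0 in all 3 libraries. Of the plasma and B cell and the stroma and endothelium markers, Igkc and Pecam1 had 1.20 CPM in WT and the others were at 0. Cycling markers reached 1000 CPM in 5, 0 and 6 Paneth cells, which together held 87.9% and 82.4% of the cycling UMIs of the Paneth cells of Arid3a cKO 1 and WT. These cells had a median of 7655 and 6107 genes against 3627 and 3660 in the rest, and all lay under 70%.

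Enterocyte markers reached 5000 CPM in 0, 1 and 9 Paneth cells, and the 9 WT cells held 90.1% of the enterocyte marker UMIs of WT Paneth cells and 36.9% of their UMIs outside the granule genes. WT Paneth cells thus carried more enterocyte RNA than those of either cKO library, a difference that touches each comparison of genotypes below. The summed enterocyte markers were at 1164 and 1497 CPM in Paneth cells of Arid3a cKO 1 and 2 and at 7047 in WT, against 61176 to 68651 in enterocytes and 488 to 750 in stem cells. The WT values include the near-identical barcodes. The source of this RNA was not tested.

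Outside the granule genes, Paneth cells were compared with all other kept cells of the same library, on summed UMIs as CPM. A gene was called when log2 of (CPM + 5) differed by at least 1 in the same direction in all 3 libraries. Of 5450 genes with a mean of at least 20 CPM, 178 (3.27%) were called higher and 249 (4.57%) lower, and the median gene stood at -0.22. With totals of all UMIs in place of those without granule genes, 27 were higher and 3648 lower, as granule RNA is then part of every Paneth total. Without WT, 257 were higher and 637 lower, with 1 barcode of each near-identical set 199 and 427, and in the cells at 70% or more 282 and 841, of which 172 and 240 were among the first. No test stands behind these calls, as the cells were chosen on the same libraries. A gene could also pass the floor of 20 CPM through Paneth cells alone, as 104 of the 178 did with a mean under it in other cells, so counts and medians over list genes that passed describe these libraries and support nothing.

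The other antimicrobial genes of the granule stood far above the rest of the epithelium. Itln1 was at 102830, 156427 and 84614 CPM in Paneth cells of Arid3a cKO 1, Arid3a cKO 2 and WT against 55.9 to 56.6 in other cells. Ang4, an angiogenin-family ribonuclease, was at 29557, 35262 and 21548 CPM against 15.9 to 36.3. Pla2g2a, the secreted phospholipase that attacks bacterial membranes, was at 1759, 2805 and 1025 CPM against 0.402 to 0.794. These 3 and Ang were the 4 of 7 tested antimicrobial genes called higher, with a mean log2 difference of 10.82, 9.89, 8.27 and 3.10. Reg3a and Reg3b, lectins of the Reg family, were called lower (mean log2 -3.75 and -2.29), and Reg3g, at 0.07, was called in neither direction. The pentraxin Mptx1 had no UMI in any Paneth cell.

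The label was set beside 10 Paneth markers that the rule did not use. All 10 had a higher CPM in Paneth cells than in other cells in each library, as had 1001 of the 5450 genes (18.4%). Of the 10, 9 passed the floor, 6 of them through Paneth cells alone, and all 9 were called higher, which is given as a description. Mmp7, the enzyme that activates the defensins, was at 4246, 5540 and 5085 CPM against 3.84 to 5.66. Clps, the colipase, was at 18997, 24817 and 18526 CPM against 30.1 to 35.6. Lesser differences were seen for Cd24a (mean log2 3.13), Guca2a, the guanylin precursor (2.70), and the receptor Kit (2.68).

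Of 9 niche ligands, 2 were high enough to test and 1 was called. Wnt3, the Wnt that Paneth cells give to stem cells, was at 98.4, 124 and 78.0 CPM against 1.31 to 1.65, and at 5.01 to 7.76 in goblet cells, 0 to 1.63 in stem cells and 0.143 to 0.366 in enterocytes, which were sets cut by their own marker genes. Paneth cells thus held the highest Wnt3 of the 4 sets in every library. Dll4, a Notch ligand, was at 15.4, 28.6 and 8.40 CPM and below the goblet set (54.6, 43.1 and 39.8). Egf was at 5.12, 9.52 and 6.003 CPM, Tgfa at 5.12, 1.90 and 9.61, and Bst1, a niche signal of Paneth cells in calorie restriction, at 2.05, 0 and 20.4 against 38.7 to 49.7 in other cells.

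All 11 fate factors listed had a higher CPM in Paneth cells than in other cells in each library. Of these 8 passed the floor, 6 of them through Paneth cells alone, and 7 were called higher, again as a description. Atoh1, which commits cells to the secretory lineage, was at 53.3, 89.5 and 56.4 CPM against 6.62 to 11.1. Sox9, the Wnt target required for Paneth cells, was at 359, 251 and 211 CPM against 52.7 to 62.7. Bhlha15, which scales up secretory machinery, was at 54.3, 89.5 and 85.2 CPM against 0.640 to 0.794. The others were Spdef, Creb3l1, Creb3l4 and Foxa3, with means of 2.58, 2.34, 3.12 and 2.36. Xbp1, the unfolded protein response factor, was at 188, 238 and 170 CPM against 107 to 116 and was not called.

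Set beside goblet, stem and enterocyte cells, the factors fell into 3 kinds. Atoh1 (114 to 137 CPM), Foxa3 (143 to 193) and Creb3l1 (94.9 to 124) were as high or higher in the goblet set, except that Creb3l1 in Arid3a cKO 2 was at 105 CPM in Paneth cells and 94.9 in goblet cells. Sox9 was shared with stem cells (233 to 331 CPM) and not with goblet cells (42.7 to 55.3). Bhlha15 was highest in Paneth cells, with 7.40 to 8.64 CPM in goblet and 0.0481 to 0.542 in stem cells and enterocytes. The receptor Ephb3, which keeps Paneth cells at the crypt base, was at 93.3, 122 and 51.6 CPM against 17.9 to 34.4 in stem cells and 4.53 to 5.01 in goblet cells, and was the 1 of 4 Eph and ephrin genes called higher, whereas Ephb2 stood at 40.0, 26.7 and 31.2 CPM against 44.1 to 48.4 in stem cells.

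**Figure D3:**
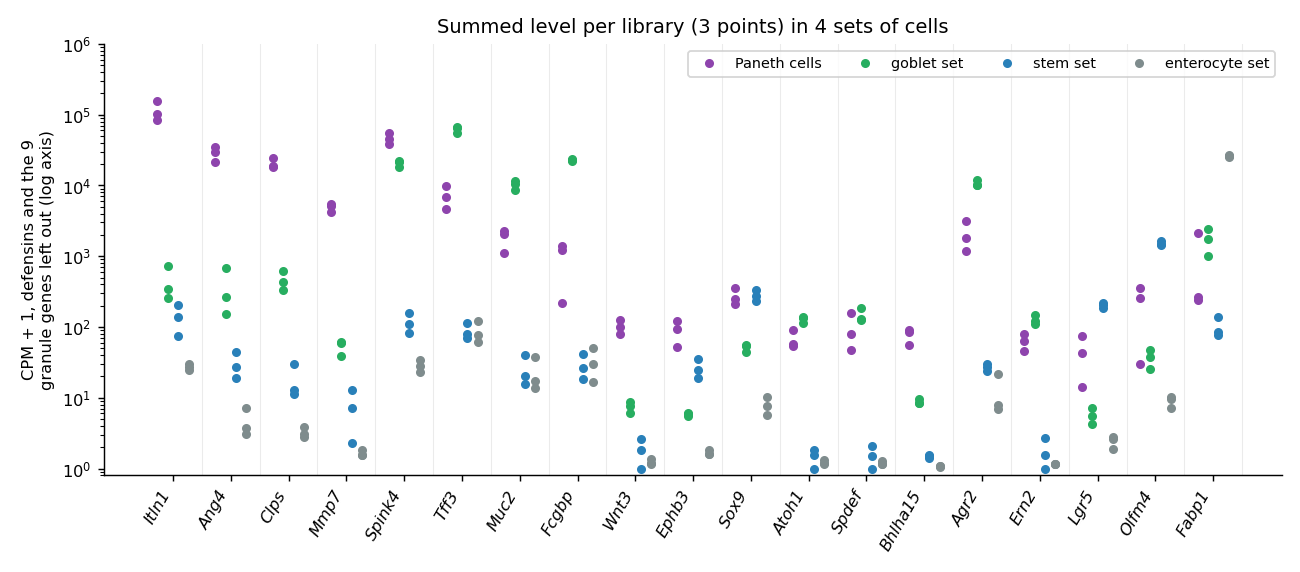
CPM plus 1 (vertical log axis) of 19 genes in Paneth, goblet, stem and enterocyte cells, each point being 1 of the 3 libraries. Itln1, Ang4, Clps, Mmp7, Wnt3 and Bhlha15 are highest in Paneth cells, Sox9 is shared with stem cells, and Muc2, Fcgbp and Tff3 are highest in goblet cells.

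Against all other kept cells, the secretory machinery was raised in part. Of 23 genes of endoplasmic reticulum folding and the unfolded protein response, 6 were called higher and none lower, with a list median of 0.83 against -0.22 over all genes. They were Ern2, the secretory-cell IRE1 sensor (mean log2 2.22), Herpud1 (1.84), Txndc5 (1.64), Dnajb9 (1.44), Dnajc3 (1.27) and Ssr4 (1.17). With totals of all UMIs the last 5 turned lower, from -0.90 for Ssr4 to -0.19 for Herpud1, so their direction holds relative to RNA outside the granule genes. Hspa5, the main ER chaperone, was at 826, 1407 and 934 CPM against 612 to 812, a mean of 0.58, and Calr and Hsp90b1 had means of 0.04 and 0.10. Summed over the 24 genes listed, Paneth cells stood at 8886, 13537 and 9048 CPM. The goblet set was higher in every library, at 18187, 21448 and 19559 CPM.

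Among 5 exocytosis genes tested, Rab3d, a GTPase of secretory granules, was called higher, at 140, 169 and 84.0 CPM against 13.4 to 16.5. The 7 exocytosis genes listed summed to 531, 663 and 388 CPM in Paneth cells, below the goblet set at 1488, 1208 and 1161. Among 4 autophagy genes, Atg7 was called, at 63.5, 91.4 and 54.0 CPM against 8.48 to 9.32, while Atg5 was at 60.5, 40.0 and 60.03 against 54.6 to 56.3. The zinc transporter Slc30a2, which loads Paneth granules, was at 51.2, 60.9 and 31.2 CPM against 12.4 to 15.8 and missed the limit in WT (log2 0.80). None of 8 dissociation stress genes and none of the 3 tested MHC class II genes was called.

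Of 6 goblet markers 1 was called higher, 1 lower and 4 in neither direction. Spink4 was at 45807, 55924 and 38859 CPM, above even the goblet set (18419 to 22236), which had been cut by the summed goblet markers, Spink4 and Muc2 among them. CPM leaves out granule RNA, which was 73.2%, 80.4% and 75.6% of Paneth UMIs. On totals of all UMIs, Spink4 would stand below the goblet set. Muc2, the gel-forming mucin, was at 2054, 2268 and 1103 CPM and well below the goblet set (8627 to 11471), and Zg16, another mucus protein, was called lower (mean log2 -3.93). Of 8 enterocyte markers 5 were called lower and none higher, with a median of -3.95 in Arid3a cKO 1 and -3.79 in Arid3a cKO 2 but -1.36 in WT. All 6 enteroendocrine markers tested were called lower (median -4.39), and no stem or cycling marker was called.

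**Figure D4:**
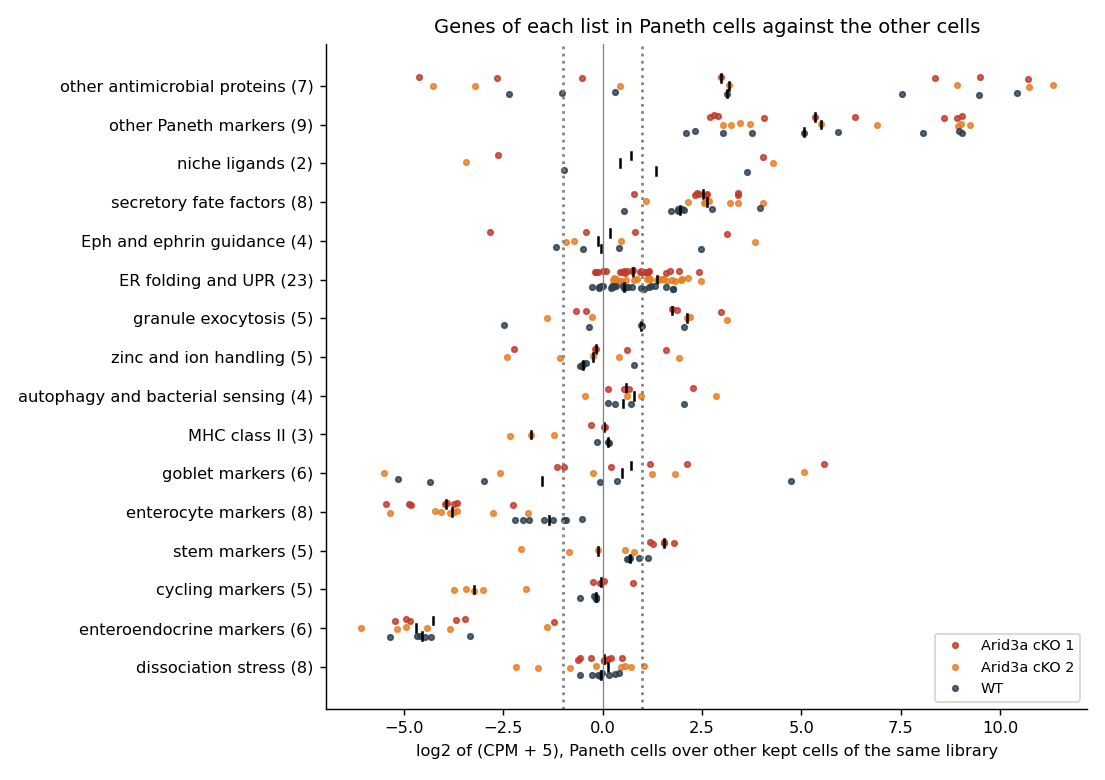
Difference in log2 of (CPM + 5) between Paneth cells and the other kept cells of the same library, 1 point per tested gene and library, with black ticks at each library's median and the number of tested genes in brackets. Paneth markers and, except Xbp1, fate factors lie to the right of the dotted line at 1, and enteroendocrine markers and, less so in WT, enterocyte markers lie to the left of -1.

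Outside the lists, the gene with the largest smallest-of-3 difference was Rnase1, a secreted ribonuclease, at 2645, 2411 and 2093 CPM against 18.3 to 25.4. Bambi, a decoy receptor of TGF-beta and BMP signalling, was at 327, 537 and 402 CPM against 2.81 to 4.05, and in goblet and stem cells at 2.00 to 5.97. Tmed6, a cargo receptor of the early secretory pathway, was at 457, 524 and 408 CPM against 3.86 to 5.07. Samd5 was at 99.4, 81.9 and 74.4 CPM and at 0.691 or less in the goblet, stem and enterocyte sets.

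The chemokine Ccl6 was at 3359, 4308 and 3088 CPM and was also found in goblet cells (1112 to 1167). Ramp1, a partner of calcitonin-family receptors, was at 299, 423 and 261 CPM and at 274 to 341 in goblet cells. Qsox1, which forms disulphide bonds, was at 342, 497 and 383 CPM, against 278 to 306 in goblet cells. These CPM leave out granule RNA, and on totals of all UMIs Ccl6, Ramp1 and Qsox1 would stand below goblet cells. Fam46c, Nucb2, Hpd, Fkbp11, Rnase4, Reg4, Thbs1 and Lbh completed the 15 named genes, with mean log2 differences of 3.50 to 5.08. On the lower side, the hormone genes Sst and Gcg, the genes Afp and Il18 and the enterocyte genes Spink1, Chp2, Rbp2, Cox7a1, Muc3 and Slc2a2 had means of -4.76 to -2.52.

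Arid3a itself could not be followed within Paneth cells. Over all kept cells 42 UMIs were counted for Arid3a cKO 1 (0.616 CPM), 52 for Arid3a cKO 2 (0.929 CPM) and 161 for WT (2.68 CPM), lower in both libraries labelled cKO. In Paneth cells it had 0, 0 and 1 UMI. A count of 0 was given an upper limit of 3 UMIs, which is 3.07 and 5.71 CPM in Arid3a cKO 1 and 2. These limits lie above the level of WT cells as a whole, so a difference was not detectable at this depth. Deletion in the Paneth cells was not checked by this gene.

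Paneth cells of both cKO libraries were next set against those of WT. Among 1158 genes with a mean of at least 100 CPM outside the granule genes, 5 (0.432%) were higher by a log2 of at least 1 in both cKO libraries and 41 (3.54%) lower. None of the 7 Paneth markers and none of the 18 folding genes that were high enough to compare was called. Against WT, Arid3a cKO 2 alone gave 24 higher and 76 lower genes and Arid3a cKO 1 alone 7 and 66, among genes with a mean of at least 100 CPM over the pair of libraries compared. Among the 1158 genes that passed over all 3 libraries, single pairs of libraries differed by as much for 40 genes (3.45%) between both cKO libraries, 63 (5.44%) between Arid3a cKO 1 and WT and 92 (7.94%) between Arid3a cKO 2 and WT. The median gene stood at -0.01 and -0.11, and both cKO values share the 1 WT library.

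Among the 41 lower genes were many enterocyte genes. Fabp1, the fatty acid binding protein, was at 238 and 261 CPM in both cKO libraries and 2116 in WT. Apoa1, an apolipoprotein, was at 154 and 307 CPM against 1669, and Rbp2, a retinol carrier, at 181 and 333 against 1686. All 7 tested enterocyte markers were called lower, and none of the 7 was called in the other kept cells, where Fabp1 was at 10667 and 10819 CPM against 9742. Of 11 mitochondrial genes, 8 were lower. With 1 barcode of each near-identical WT set, only mt-Atp8 of these was still called lower.

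These differences rested on few WT cells. With 1 barcode of each near-identical WT set, 19 of the 41 were called lower, 11 were in neither direction and 11 fell under the floor, and 28, of which 9 were under the floor, still had a log2 of -1 or less in both cKO libraries. In the cells at 70% or more, of 974 genes 7 (0.719%) were lower and 3 (0.308%) higher, and 3 of the 41 and 2 of the 5 were among them. Of the other 38 lower genes, 19 fell under the floor of 100 CPM there and 19 were in neither direction, and none kept a log2 of -1 or less in both cKO libraries. The other genes called there, named after their values were seen, were Gm26917 on the higher side and Fcgbp, Zg16, Mt1 and Cdkn1a on the lower. Of the 11 mitochondrial genes none was then lower. Apoa1 stood at 248 and 450 CPM against 488 in those cells and Rbp2 at 212 and 374 against 406.

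The genes lower in both views were Reg3b, Reg3g and Slc5a1. Reg3b, a lectin that binds bacteria, was at 175 and 70.5 CPM in all cKO Paneth cells and 1196 in WT, and at 355 and 98.0 against 1535 in the cells at 70% or more. Reg3g, its close relative, was at 417 and 720 CPM against 1932, and at 705 and 1121 against 2531. Slc5a1, the sodium-glucose transporter of the brush border, was at 71.7 and 83.8 CPM against 361, and at 57.8 and 79.6 against 195. WT was the highest library for all 3 in both views.

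Reg3b and Reg3g were lower in the other kept cells of the cKO libraries as well, at 1126 and 692 CPM against 2439 for Reg3b and at 603 and 531 against 1563 for Reg3g, so a like difference was seen outside Paneth cells. Cd74, the MHC class II invariant chain, went the same way inside and outside Paneth cells, with 58.4 and 3.81 CPM against 351 in Paneth cells and 57.5 and 39.3 against 318 in others. Of the 41 genes, 4 (Reg3b, Reg3g, Cd74 and Gstm1) were called lower in the other kept cells too, where 7 of 1434 genes (0.488%) were called lower in all. In the cells at 70% or more Cd74 was too low to compare, at 63.3 and 6.13 CPM against 49.5.

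The 5 higher genes were Fcgbp, Klk1, Gm1123, Cldn4 and Atf3. Fcgbp was at 1223 and 1402 CPM against 215 (log2 2.48 and 2.68), but 91.0% and 96.5% of its UMIs in the cKO libraries came from the 5 and 3 cells almost without Defa30, and in the cells at 70% or more its sign turned, at 102 and 61.3 CPM against 251. Klk1, at 492 and 764 CPM against 175, and Cldn4, a tight junction claudin, at 180 and 217 against 78.0, kept their direction there without being called. Atf3, a stress-induced transcription factor, was at 419 and 449 CPM against 204, and at 418 and 404 against 175. It is on the dissociation stress list, of which 4 genes were high enough to compare and 1 was called higher. The medians of that list were 0.45 and 0.68 in the cKO libraries, against -0.01 and -0.11 over all genes. Gm1123, a gene without a settled role, was at 484 and 657 CPM against 191, and at 625 and 646 against 201. Both genes were called in both views, and in the other cells Atf3 was at 410 and 270 against 220 and Gm1123 at 314 and 365 against 291.

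**Figure D5:**
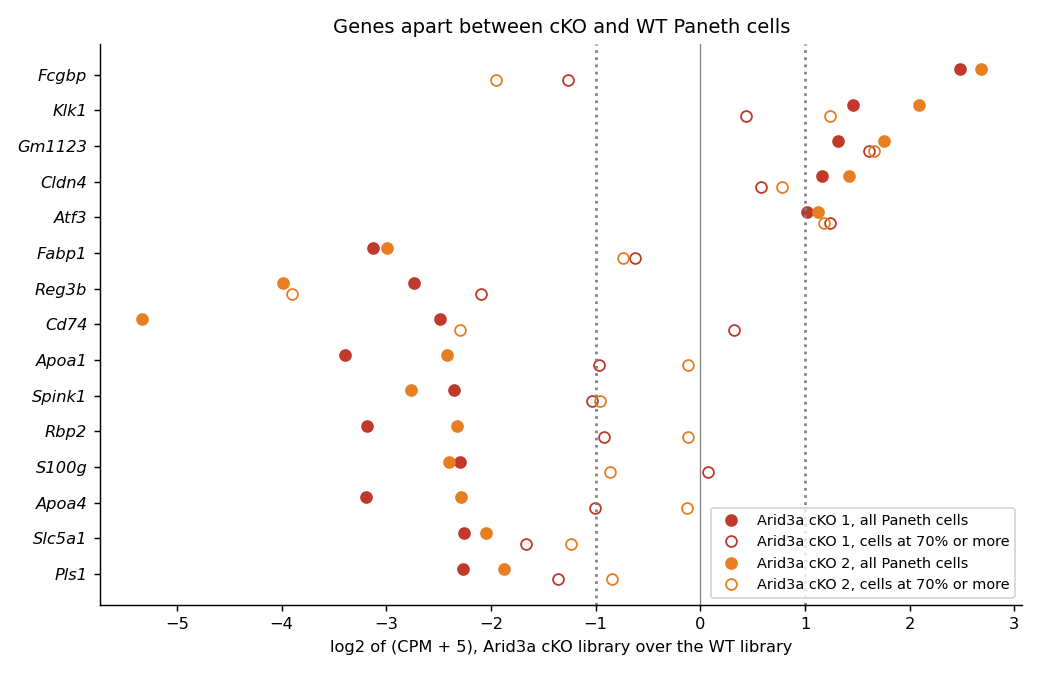
Difference in log2 of (CPM + 5) between each Arid3a cKO library and the WT library for the 15 genes named, with filled points for all Paneth cells, open points for those with at least 70% of UMIs on the 9 genes and dotted lines at -1 and 1. The open points of the enterocyte genes move towards 0, those of Fcgbp cross it, and those of Reg3b, Slc5a1, Gm1123 and Atf3 stay beyond the dotted lines.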

How the data were processed

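Single-cell RNA was measured in 2 Arid3a cKO libraries and 1 WT library, grouped by their genotype labels, of the 2 biological replicates for each condition that the series record gives, and how many mice each library holds is not given in the sources used here. The authors' deposited values are whole UMI counts, not normalized, for each gene and barcode, made with CellRanger 5.0.0. The submitters' processing notes list the human builds GRCh38 and hg19, whereas the gene identifiers are mouse, and the build used for counting is not given in the sources used here.

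UMIs were summed over the cells of a library and divided by the total without the 9 rule genes and 38 other alpha-defensin symbols, as CPM. With granule genes included, kept cells other than Paneth cells held 55484599 to 67282051 UMIs a library, and Paneth cells 2684711 to 3640429. Differences are in log2 of (CPM + 5), with mean floors of 20 CPM against other cells and 100 CPM between genotypes. Goblet cells had at least 2% of UMIs on goblet markers, and stem cells at least 0.1% on Olfm4 and at least 1 Lgr5 UMI. Enterocytes had at least 2% on Fabp1, Fabp2, Apoa1 and Apoa4 together. The sets were cut in this order, each without Paneth cells and without cells of the sets before it. Intervals were Clopper-Pearson for shares and exact Poisson for CPM. Doublets were scored with Scrublet (scanpy 1.11.5, limit 0.2). Python 3.11.15, numpy 2.4.6, scipy 1.17.1 and pandas 2.3.3 were used, with scripts tested on simulated data.

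The members and gene lists were chosen with earlier results of these data known. Outside the lists, up to 15 higher and 10 lower genes with the largest smallest-of-3 difference were named and, for genotype, up to 10 a direction.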

Additional observations from a re-analysis of the deposited data

How the results depend on the processing

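Most values held their direction. Of 1050 values of named genes against other cells 5 reversed, of 736 for cKO against WT 6, and of the list medians none. A further 140 of the 1050 and 185 of the 736 were counted as moved in size without reversing. So were 43 of 255 list medians against other cells and 42 of 235 for cKO against WT. The difference in Paneth share ran from -0.385 to 0.012 points when 1 cKO library was left out, and its sign turned without Arid3a cKO 2. The difference in granule share ran from -2.14 to 4.96 points on leaving out 1 cKO library, and was -1.23 with members from 20%, -2.16 from 70% and -1.16 with 1 barcode of each near-identical set. The 70% limit and the near-identical sets were chosen after seeing the data.

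Genes higher in Paneth cells numbered 282 (cells from 70%), 27 (totals of all UMIs), 374 (log2 of at least 0.5) and 290 (no filter on low values). Genes lower numbered 510 (20%), 841 (70%), 427 (near-identical), 3648 (all UMIs), 546 (mean of per-cell CPM) and 920 (log2 0.5), and both together 709, 1123, 3675, 797 and 1294 for 20%, 70%, all UMIs, per-cell means and log2 0.5. Leaving out 1 library gave 179 to 257 higher, 266 to 637 lower and 445 to 894 in all. With totals of all UMIs, Dnajb9 stood at -0.48, Dnajc3 at -0.75, Ssr4 at -0.90, Herpud1 at -0.19 and Txndc5 at -0.37.

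For cKO against WT, higher genes numbered 10 (5%), 3 (70%), 3 (all UMIs), 10 (per-cell means), 32 (log2 0.5), 25 (mean of 20 CPM) and 66 (no filter). Lower genes numbered 10 (20%), 7 (70%), 19 (near-identical), 12 (all UMIs), 23 (per-cell means), 104 (log2 0.5), 152 (20 CPM), 19 (200 CPM) and 342 (no filter). Both together were 15, 10, 25 and 15 for 20%, 70%, near-identical and all UMIs, and 136, 177, 23 and 408 for log2 0.5, 20 CPM, 200 CPM and no filter. Leaving out 1 cKO library gave 7 to 24 higher, 66 to 76 lower and 73 to 100 in all, as the lone library is then called by itself. At 70%, Fcgbp stood at -1.60, mt-Nd1 at 0.14, mt-Nd2 at 0.20, mt-Atp6 at 0.54, mt-Nd5 at 0.22 and mt-Cytb at 0.27. The cause of these changes was not tested.

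No paired analysis was possible because WT has a single library, and so 1 replicate number in common with the cKO libraries. With 20 to 36 Paneth cells a library and 1 WT library, genes of low level, Arid3a among them, cannot be compared between genotypes.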
